A study of Mus musculus with 4 samples.

Results

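The cytosolic ribosomal proteins were taken as every gene of the deposited matrices whose symbol is that of a large-subunit (Rpl) or small-subunit (Rps) protein with a number, together with Rplp0, Rplp1, Rplp2 and Rpsa, and without names marked as pseudogenes. The rule gave 84 of 30907 features, 52 with large-subunit and 32 with small-subunit names, and no measured value entered it. They were followed in single cells of the tracheas of adult mice that were wild type, 129X1/S1 or C57BL/6, injured through the airway with 2% polidocanol, a detergent, and given 6000000 basal cells 5 h later. The iBC recipient (strain label 129 X1/S1, 192 days) was given iBCs, which are basal cells differentiated from embryonic stem cells, and the primary BC recipient (C57BL/6, 69 days) received primary basal cells (BCs). Live Calcein Blue+ cells of each were sorted into a GFP+, donor-derived library and a GFP- library of endogenous cells, so that every cell analysed here came from an injured and transplanted trachea. The endogenous and donor-derived libraries are called iBC-host and iBC-graft after iBC transplantation and BC-host and BC-graft after primary BC transplantation, and values of 4 libraries follow that order. Each of these groups held 1 library, and the labels do not say whether more than 1 animal went into it. No difference therefore has a replicate check or a test. Animal, strain label, donor cell kind and time differed together between the recipients and cannot be told apart.

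A ribosome joins a small subunit, which reads the mRNA, to a large subunit, which forms the peptide bonds. Each subunit is built on ribosomal RNA from one copy of most of its proteins, and the acidic stalk proteins Rplp1 and Rplp2 are carried on Rplp0 at the site where elongation factors bind. mRNAs of ribosomal proteins begin with a run of pyrimidines, the 5' TOP, through which mTOR signalling and the protein LARP1 control their translation, so mRNA level and protein output can part. Basal cells are the stem cells of the tracheal epithelium, secretory cells make secretoglobins and other secreted proteins, and ciliated cells are end-stage cells that beat cilia.

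Start-site windows are shown for 4 members to which the values below return: Rps12, among the members that stood out in basal cells, Rps27 and its paralog Rps27l, and Rpl22l1, the paralog of Rpl22. Each is the RefSeq sequence (GRCm38.p6) from 45 bases before to 25 bases from the start site on, with capitals for an unbroken run of at least 8 C or T that overlaps the 15 bases on either side of that site.
Rps12 (chr10:23787185-23787254, - strand): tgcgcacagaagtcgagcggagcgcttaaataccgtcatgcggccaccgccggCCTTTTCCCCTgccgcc
Rps27 (chr3:90213624-90213693, - strand): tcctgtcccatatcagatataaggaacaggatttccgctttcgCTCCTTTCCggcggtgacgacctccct
Rps27l (chr9:66946041-66946110, + strand): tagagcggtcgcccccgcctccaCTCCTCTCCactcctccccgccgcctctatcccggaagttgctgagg
Rpl22l1 (chr3:28805463-28805532, + strand): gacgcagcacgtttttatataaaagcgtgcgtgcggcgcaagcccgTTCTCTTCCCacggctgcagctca
The run in Rps27l began 22 bases before the listed start site, and that in Rpl22l1 1 base after it. RefSeq lists a second start site for Rps27l, whose window held no such run. Of the 84 members, 64 had a RefSeq window of 250 bases before to 50 bases after the start. A pyrimidine run of this kind was found in 31 of them (48.4%), against 20.04% of 27025 genes with such a window. The letters CCGGAAG, the core bound by ETS factors, were found on either strand in 26 members (40.6%) and in 9.93% of all genes. AAGATGGC, a YY1-type motif, was found in 6 members (9.38%) and 3.19% of all genes, CACGTG, an E-box, in 9.38% against 8.09%, and TATAAA, the TATA-box letters, in 10.9% against 15.7%. None of these 4 letter strings contains another, and a match describes the letters only.

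The libraries held between 21504563 and 26625123 UMIs in total, and 1354 to 1807 cells were kept in each. At most 1 cell barcode was shared by any pair of libraries. Cells were gated on markers into a basal class of 388 to 876 cells per library, a secretory class of 201 to 506 and a ciliated class of 171 to 365. The 12 ciliated markers summed to between 10577 and 13209 UMIs per 1000000 UMIs of the class sum (CPM) in ciliated cells and to at most 182 CPM in basal cells, and the 12 basal markers to between 10183 and 13517 CPM in basal cells and at most 313 CPM in ciliated cells. Secretory markers summed to between 319471 and 440977 CPM in secretory cells but still to between 42428 and 55805 CPM in ciliated cells. Their part in any result was not tested beyond leaving marker genes out of the denominator. Depth differed by class: the median cell held 7690 to 11771 UMIs in the basal class, 16753 to 26196 in the secretory class and 11897 to 19093 in the ciliated class.

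Of the 84 members, 81 reached 20 CPM in every library and 74 reached 500 CPM, counted over all kept cells. Rpl3l, Rpl10l and Rpl39l, paralogs best known from striated muscle or testis, were the exceptions. Rpl3l had 0, 2, 1 and 0 UMIs, Rpl10l had 1 UMI in iBC-graft and none elsewhere, and Rpl39l had 1 UMI in each host library. A count of 0 over all cells of a library allows 0.116 to 0.144 CPM. These 3 genes were at or below that floor and are given no fold.

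Ribosomal protein mRNA made up a large share of the UMIs of basal cells and far less of those of secretory and ciliated cells. In basal cells the 84 members took 27.1% of UMIs in iBC-host (exact binomial 95% interval 27.06% to 27.14%), 24.9% in iBC-graft, 23.5% in BC-host and 23.4% in BC-graft. In secretory cells the shares were 8.11%, 9.83%, 7.12% and 7.24%, and in ciliated cells 4.28%, 5.76%, 5.34% and 5.27%. All intervals here cover the error of counting and no variation between mice or preparations. In all 4 libraries the order was basal, secretory, ciliated, and the lowest basal share was more than the highest secretory share. Immune cells held 23.4% in iBC-host and 19.2% in BC-host. The 296, 270, 388 and 505 cells that stayed ungated held 22.6%, 16.6%, 19.2% and 16.8%, between the basal and secretory shares of their library. The gap between those classes is thus one between gated cells.

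**Figure D1:**
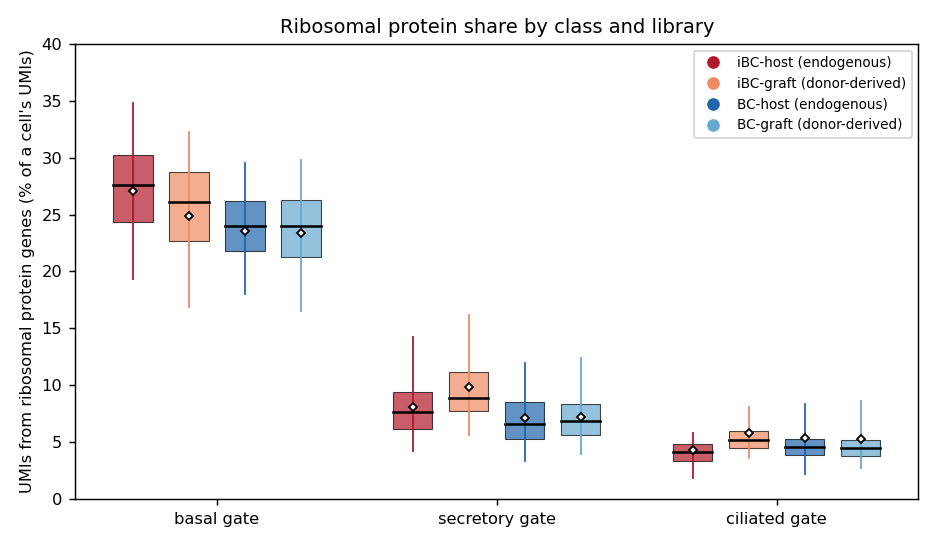
Share of UMIs in the 84 cytosolic ribosomal protein genes (%) by class and library, with 1 box per library for its cells (line at the median, box between the quartiles, whiskers from the 5th to the 95th percentile) and a white diamond for the class sum. Basal classes lie between 23.4% and 27.1%, and no secretory or ciliated class sum exceeds 9.83%.

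Single cells showed the same order as the class sums. The median basal cell held 27.6% in iBC-host, 26.1% in iBC-graft and 24.0% in both BC-host and BC-graft. The quartiles in iBC-host were 24.4% and 30.3%. The median ciliated cell held 4.16%, 5.18%, 4.58% and 4.49%. Within the basal class the shallower cells had the higher share, with medians in iBC-host of 28.9% for cells below and 26.7% for cells above the median depth. In ciliated cells of that library the shallower cells had the lower median, 3.77% against 4.34%. In iBC-host depth thus moved with the share in opposite directions in these classes. Shallower ciliated cells also had the lower median in BC-host and BC-graft, but not in iBC-graft, with 5.20% against 5.14%. The part of depth in the class difference was not tested.

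A share depends on all other mRNA in the cell, so UMIs per cell were compared as well. The median basal cell held 2123, 2359, 2839 and 2463 UMIs of the module in the 4 libraries, the median secretory cell 1426, 1574, 1981 and 1762, and the median ciliated cell 516, 625, 920 and 792. The basal to ciliated ratio of these medians was 4.11, 3.78, 3.09 and 3.11. Between basal and secretory cells it was only 1.398 to 1.499, whereas the median share differed 2.94- to 3.65-fold and the share of the class sums 2.53- to 3.34-fold. The median of all other UMIs per cell in basal cells was 0.350 to 0.465 times that in secretory cells. The marker genes of all classes, with most of these UMIs from the 12 secretory ones, took 44.9%, 32.1%, 37.0% and 35.2% of secretory UMIs. Without marker genes in the denominator the secretory shares were 14.7%, 14.5%, 11.3% and 11.2%. UMIs per cell also follow capture and sequencing depth, and less RNA per cell cannot be told apart from poorer capture.

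Nearly all members took part in the class difference. A member was counted as higher or lower where the class sums differed at least 1.5-fold with an exact Poisson 95% interval excluding 1, the test set being all genes at 20 CPM or more in 1 of the sums. From ciliated to basal cells, 79, 77, 79 and 79 of 81 members were higher in the 4 libraries and none was lower, while 23.4%, 25.3%, 24.3% and 25% of all tested genes were higher and 34.8%, 32.1%, 32.6% and 31.4% lower. The median log2 ratio of the members was 2.65, 2.14, 2.11 and 2.11, and that of all tested genes -0.12, -0.03, -0.06 and -0.02. From secretory to basal cells 81, 79, 80 and 80 members were higher, beside 69.7%, 53.9%, 59.8% and 59.9% of all tested genes, and none was lower, beside 6.24%, 6.42%, 8.06% and 7.75%. The share of members was thus read against a background in which most genes were higher. From ciliated to secretory cells 71, 64, 28 and 29 members were higher, against 6.76%, 9.2%, 9.25% and 8.74% of tested genes. Rps27l was lower in iBC-host, BC-host and BC-graft and no member was lower in iBC-graft, where 71.4%, 61.1% and 58.8%, and 52.6%, of tested genes were lower.

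Rps27l and Rpl41 were the members that did not differ by this rule between basal and ciliated cells in any library. Rps27l, a p53-responsive paralog of the small-subunit protein Rps27, lies at chr9:66946086-66949516 on the + strand (GRCm38). It stood at 402, 426, 451 and 432 CPM in basal cells and at 362, 416, 412 and 403 CPM in ciliated cells. Its basal to ciliated fold was between 1.02 and 1.11, where the whole module differed 4.32- to 6.33-fold. Rpl41, the smallest protein of the large subunit, lies at chr10:128548114-128549305 on the - strand. It stood at 3959, 3160.1, 3620.0 and 3336 CPM in basal cells and 2662, 3048, 2797 and 2526 CPM in ciliated cells, a fold of 1.04 to 1.49. All 19 windows of 60 bases in the short coding sequence of Rpl41 also occur in an annotated transcript of another gene. The near-identical copy Gm10076 was counted as a feature of its own at 254 to 284 CPM over all kept cells. The split between the copies is thus uncertain. In iBC-graft, Rpl36al and Rpl7l1 also did not differ by the rule.

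Among the members with the highest folds were Rpl12, Rps19 and Rps12. Rpl12, a protein of the stalk base, had 4199, 4076, 3254 and 3472 CPM in basal cells and 309, 492, 435 and 471 CPM in ciliated cells. It was 13.6-fold (95% interval 12.9 to 14.4), 8.28-fold, 7.48-fold and 7.37-fold higher in basal cells. Rps19, a small-subunit protein known for its mutation in Diamond-Blackfan anaemia, had 4508, 4347, 3741 and 3652 CPM in basal cells and 368, 534, 503 and 525 CPM in ciliated cells. Its fold was 12.2, 8.14, 7.43 and 6.96. Rps12, also of the small subunit, had 5367, 5601, 4205 and 4266 CPM in basal cells and a fold of 12.1, 7.72, 7.42 and 8.12, the highest of these 3 in BC-graft.

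The make-up of the module was then described per 100000 of its own UMIs, a scale that other genes do not touch. On this scale Rpl12, Rps19, Rps12, Rps7 and Rps18 were at least 1.5-fold higher in basal than in ciliated cells of all 4 libraries, and Rpl22l1, Rpl41, Rps27l, Rpl36al and Rpl7l1 at least 1.5-fold lower in all 4. The first set holds 1 large-subunit and 4 small-subunit proteins, and 4 of the 5 genes of the second are paralogs of another member. Among all tested genes 3.39%, 3.29%, 4.38% and 3.72% were higher and 92.6%, 90.7%, 90.1% and 90.2% lower on that scale. The scale itself lowers every gene outside the module by the module's own class difference. These shares are therefore fixed largely by the scale and are no background for the members. Rps27l went from 148, 172, 192 and 185 per 100000 in basal cells to 846, 723, 771 and 764 in ciliated cells. Rpl41 went from 1461, 1271, 1539 and 1428 to 6219, 5295, 5236 and 4792.

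By the smallest of the 4 ratios over the higher of the other classes on this scale, Rps19 (1.30 to 1.499), Rps24 (1.23 to 1.29) and Rpl13 (1.23 to 1.28) led the basal class. Rpl10, which is needed for the last steps of large-subunit maturation, had the highest such ratio in the secretory class, and Rpl7a was also among its leading members. Rps27l (2.30 to 3.51), Rpl41 (1.78 to 2.57) and Rpl22l1 (1.44 to 2.05) led the ciliated class. The summed small-subunit UMIs per large-subunit UMI were 0.80, 0.81, 0.78 and 0.78 in basal cells, 0.73, 0.74, 0.71 and 0.71 in secretory cells and 0.66, 0.69, 0.69 and 0.69 in ciliated cells. The basal values were the highest and the ciliated the lowest in every library.

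**Figure D2:**
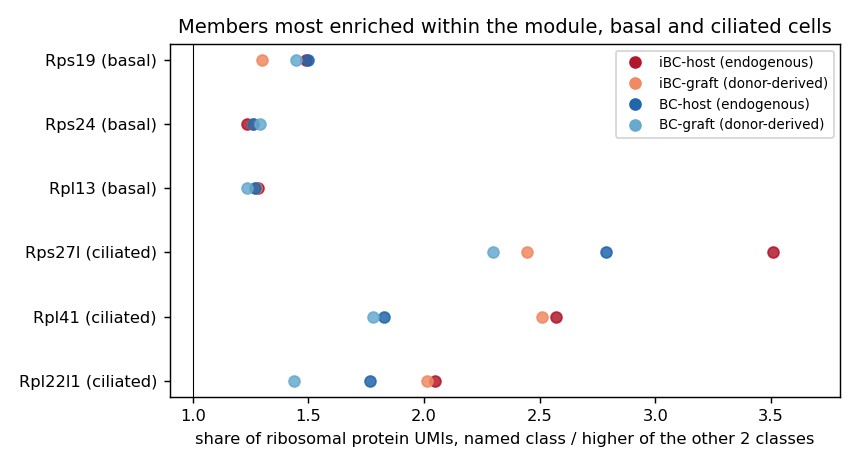
UMIs of single members per 100000 UMIs of the module, as a ratio of the named class over the higher of the other classes, for the 3 leading members of the basal and of the ciliated class, with 1 point per library on a linear axis. Rps27l and Rpl41 in ciliated cells lie farthest from 1, with ratios up to 3.51 and 2.57, and the basal leaders reach at most 1.499.

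Paralog pairs were compared as the share of a pair's UMIs that came from the paralog. This share can be compared across classes and libraries but is no ratio of levels per length. Rps27l took 7.48%, 9.85%, 11.9% and 11.8% of the Rps27 pair in basal cells, 12.7%, 15.8%, 17.5% and 20.9% in secretory cells and 30.3%, 29.9%, 32.9% and 33.6% in ciliated cells. The order basal, secretory, ciliated held in all 4 libraries with intervals that did not overlap. The partner moved more than the paralog: Rps27 went from 4972, 3903, 3344 and 3224 CPM in basal cells to 833, 975, 840 and 796 CPM in ciliated cells.

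Rpl22l1, at chr3:28805436-28807424 on the + strand, is the paralog of Rpl22, an RNA-binding protein of the large subunit that represses it. Its share was 28.2%, 23.6%, 29.7% and 28.2% in basal cells and 44.4%, 37.8%, 45.5% and 41.3% in ciliated cells. In secretory cells it was 23.5%, 21.7%, 32.3% and 32.1%, below the basal share after iBC transplantation and above it after primary BC transplantation. Rpl36al went from 10.4%, 11.2%, 14.3% and 11.7% of its pair in basal cells to 33.6%, 31.2%, 30.1% and 27.3% in ciliated cells. Its secretory share was 18.9%, 19.3%, 30.5% and 27.8%. Rpl7l1 took 2.14% to 2.71% of its pair in basal cells and 6.52% to 7.59% in ciliated cells.

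**Figure D3:**
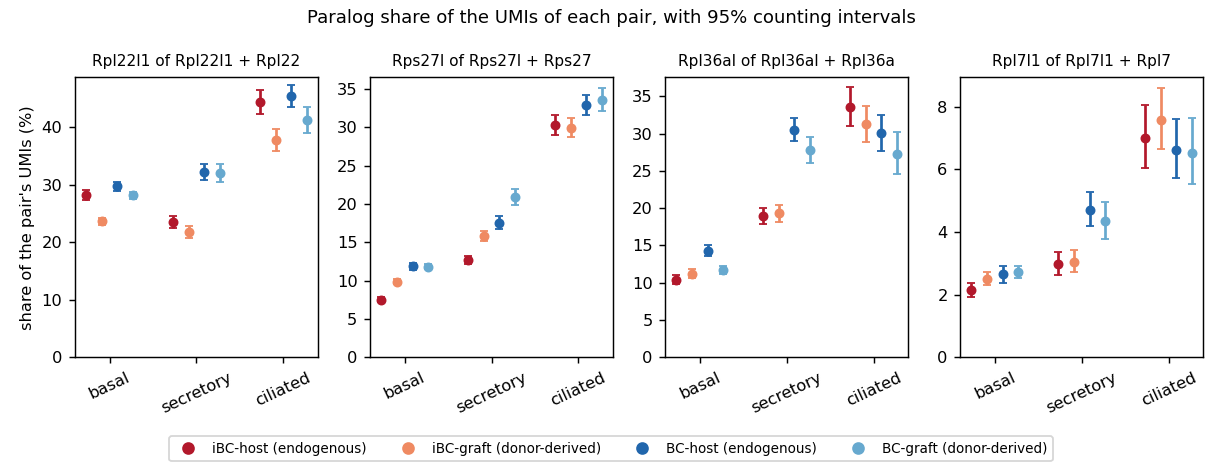
Share of each pair's UMIs taken by Rpl22l1, Rps27l, Rpl36al and Rpl7l1 (%) in basal, secretory and ciliated cells, 1 point per library with its exact 95% counting interval. In each panel the ciliated shares lie above the basal shares of all 4 libraries, from 27.3% to 33.6% against at most 14.3% for Rpl36al.

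Between the recipients Rpl29, Rps2 and Rps3a1 were the lowest members in every class, and Rpl29 by far the lowest. Rpl29, a large-subunit protein at chr9:106429454-106431568 on the + strand (GRCm38), had 95.3, 101, 1259.8 and 1203.5 CPM in basal cells. Secretory levels were 25.5, 37.4, 363 and 349 CPM and ciliated levels 14.3, 27.1, 312 and 289.8 CPM. Both iBC libraries were low and both BC libraries high, without overlap, in graft and host cells alike. The median basal cell held 1 UMI of Rpl29 in iBC-host and in iBC-graft, 15 in BC-host and 13 in BC-graft. Against BC-host, iBC-host was 13.2-fold lower in the basal class (95% interval 12.01 to 14.6), 14.2-fold in the secretory class and 21.7-fold in the ciliated class (16.9 to 28.4, from 64 UMIs). Against BC-graft, iBC-graft was 11.9-fold, 9.32-fold and 10.7-fold lower. Immune cells, which are not epithelial, had 112 CPM in iBC-host and 846 CPM in BC-host.

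Rps2, a small-subunit protein near the mRNA entry site, lies at chr17:24718116-24721929 on the + strand. It had 1568, 1617, 3033 and 3047 CPM in basal cells. In secretory cells the values were 500.1, 715, 953 and 1029 CPM, and in ciliated cells 247, 355, 617 and 584 CPM. In the order basal, secretory and ciliated it was 1.93-, 1.91- and 2.495-fold lower in iBC-host than in BC-host, and 1.89-, 1.44- and 1.65-fold lower in iBC-graft than in BC-graft; the secretory graft value was under the 1.5-fold limit. Rps3a1, a small-subunit protein at chr3:86137940-86142702 on the - strand, had 1875, 1751, 3559.6 and 3438 CPM in basal cells. It was 1.90-, 1.81- and 2.62-fold lower between the host and 1.96-, 1.65- and 2.09-fold lower between the graft libraries. For both genes the iBC libraries were the lower in each class.

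**Figure D4:**
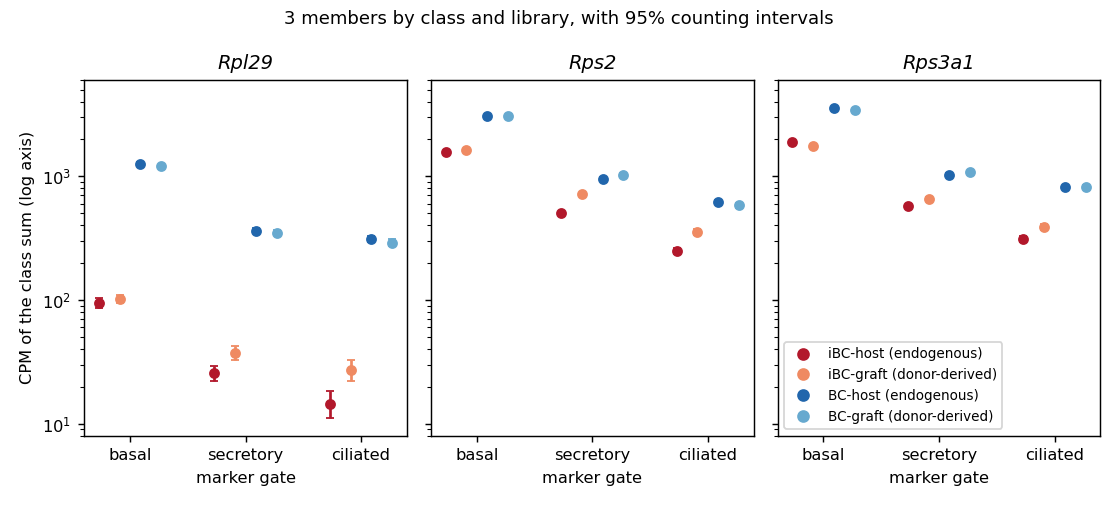
Level of Rpl29, Rps2 and Rps3a1 (CPM) in the basal, secretory and ciliated classes, 1 point per library with its exact 95% counting interval. The iBC libraries lie below the BC libraries in every panel, with Rpl29 at 95.3 and 101 against 1259.8 and 1203.5 CPM in basal cells.

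All 3 genes have near-identical copies elsewhere in the genome, which bears on how reads can be assigned. Windows of 60 bases in the last 300 coding bases were called unique where no annotated transcript of another gene held them. The genome outside annotated transcripts was not searched. Of these windows 24.9% were unique for Rpl29 and Rps2 and 26.1% for Rps3a1. Fewer than 50% of windows were unique in 68 of the 81 measured members. The windows leave out untranslated bases, so they cannot show how the reads of these 3 genes were assigned. The part of read assignment in the differences between recipients was not tested. Across the 81 members the unique share and the size of the log2 ratio between the host libraries had a Pearson r of 0.03 and a Spearman rho of -0.01, a description over genes that share libraries and reads. GENCODE vM21 holds 14 copies of Rpl29 at 97% identity or more over at least 300 bases, of which 2 were features of the matrices. The last 120 coding bases of Rpl29 and of 2 of its 3 closest copies are shown because gene and copies are nearly identical there, with capitals where a copy differs from Rpl29.
Rpl29 (chr9:106431330-106431449, + strand): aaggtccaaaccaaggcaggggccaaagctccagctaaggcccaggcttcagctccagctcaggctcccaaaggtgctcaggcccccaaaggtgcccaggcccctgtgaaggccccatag
Gm13841 (chr5:115801677-115801796, - strand): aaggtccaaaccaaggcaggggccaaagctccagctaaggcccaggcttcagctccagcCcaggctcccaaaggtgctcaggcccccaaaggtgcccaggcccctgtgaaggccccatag
Gm14036 (chr2:134804309-134804428, + strand): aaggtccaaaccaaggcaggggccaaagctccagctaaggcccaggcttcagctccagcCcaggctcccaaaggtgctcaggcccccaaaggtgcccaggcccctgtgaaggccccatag
Both copies are processed pseudogenes and differ from Rpl29 at 1 base here, as does Gm8210, which is not shown. Where the reads of Rpl29 fall was not tested. Of the 14 copies compared none was identical over these bases and 8 differed at up to 3 bases. Gm3550, a copy that is a feature, went the other way from Rpl29, with 2.60, 3.16, 0.295 and 0.387 CPM over all kept cells. With the 2 copies that are features added, the log2 ratio of Rpl29 between the host libraries was -3.59, -3.51 and -3.97 in basal, secretory and ciliated cells. Without them it was -3.66, -3.59 and -4.03. In iBC-host these copies, Gm3550 and Gm17669, had 54 and 7 UMIs beside 1018 of Rpl29, so adding them could hardly move the ratio. Reads of copies that are not features could not be added. How reads with several matches were treated is not given in the sources used here, and the part of strain differences in the sequence of gene or copies was not tested.

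After iBC transplantation, graft and host cells differed in the whole module in a direction that depended on the class. The iBC-graft to iBC-host ratio of the share was 0.92 in basal, 1.21 in secretory and 1.34 in ciliated cells, and the secretory difference turned its direction with TMM scaling (log2 -0.075 in place of 0.28) and without marker genes in the denominator (-0.023). In basal cells 0 of 81 members were higher and 0 lower by the 1.5-fold rule, where 10.7% of all tested genes were higher and 6.02% lower. The median log2 ratio of the members was -0.11, with 18 of 81 above 0, and that of all tested genes 0.12. The lowest were Rpl37a (5444 to 3638 CPM, log2 -0.58), Rpl36a (-0.37) and Rpl39 (-0.36), and the highest Rplp0 (0.21), Rpl5 (0.19), which carries 5S ribosomal RNA, and Rpl9 (0.18).

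Among secretory cells only Rpl13a was higher in iBC-graft than in iBC-host by the rule, at 130 against 84.4 CPM, while 28.2% of all tested genes were higher and 5.53% lower. With classes taken from clusters, 13 members were higher. The members' median log2 ratio of 0.30 was below the 0.35 of all tested genes. Rplp0 (log2 0.56) and Rps27l (0.56) followed Rpl13a (0.59), and Rpl37a (-0.01), Rpl6 (-0.01) and Rpl38 (0.03) were lowest. Rpl13a overlaps an annotated read-through gene, Gm45713, so its low count is uncertain.

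Among ciliated cells all 81 measured members had a log2 ratio of iBC-graft over iBC-host above 0, with a median of 0.44 where all tested genes had 0.09. By the rule 14 of 81 were higher and none lower, against 10.7% of all tested genes higher and 9.17% lower. With TMM scaling 7 were higher, and per UMI of the module 0. They included Rpl9, Rpl10, Rpl12, Rpl21, Rpl22, Rpl29, Rpl32, Rplp0, Rps4x, Rps7, Rps12 and Rps13. Rplp0 went from 437 to 762 CPM (1.75-fold) and Rps4x from 532 to 927 CPM (1.74-fold). The smallest log2 ratios were those of Rpl31 (0.13), Rpl37a (0.14) and Rpl4 (0.17). Mitochondrial UMIs made up 8.05% of the ciliated sum of iBC-host and 5.59% of that of iBC-graft. Secretory markers stood at 49742 and 42428 CPM. The module's log2 ratio stayed above 0 with a stricter mitochondrial limit and without mitochondrially encoded or marker genes in the denominator, as given below. The part of either in the result was not tested further.

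After primary BC transplantation the module was nearly level between graft and host. The BC-graft to BC-host ratio was 0.99 in basal, 1.02 in secretory and 0.99 in ciliated cells, and no member was called in any class. Few genes of any kind were: 0.788%, 1.5% and 1.5% of tested genes were higher and 1.29%, 1.26% and 1.18% lower in the 3 classes. The lowest members in basal cells were Rpl36al (177 against 233 CPM, log2 -0.39), Rpl27 (-0.28) and Rps28 (-0.17), and the highest Rpl12 (0.09), Rplp0 (0.09) and Rpl15 (0.08). In secretory cells Rps27l (0.28), Rpl13 (0.12) and Rps2 (0.11) were highest and Rpl36al (-0.21), Rpl27 (-0.18) and Rps29 (-0.15) lowest. In ciliated cells Rps13 (0.13) and Rpl15 (0.13) were among the highest and Rpl22l1 (-0.25), Rpl36al (-0.23) and Rplp2 (-0.20) lowest.

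**Figure D5:**
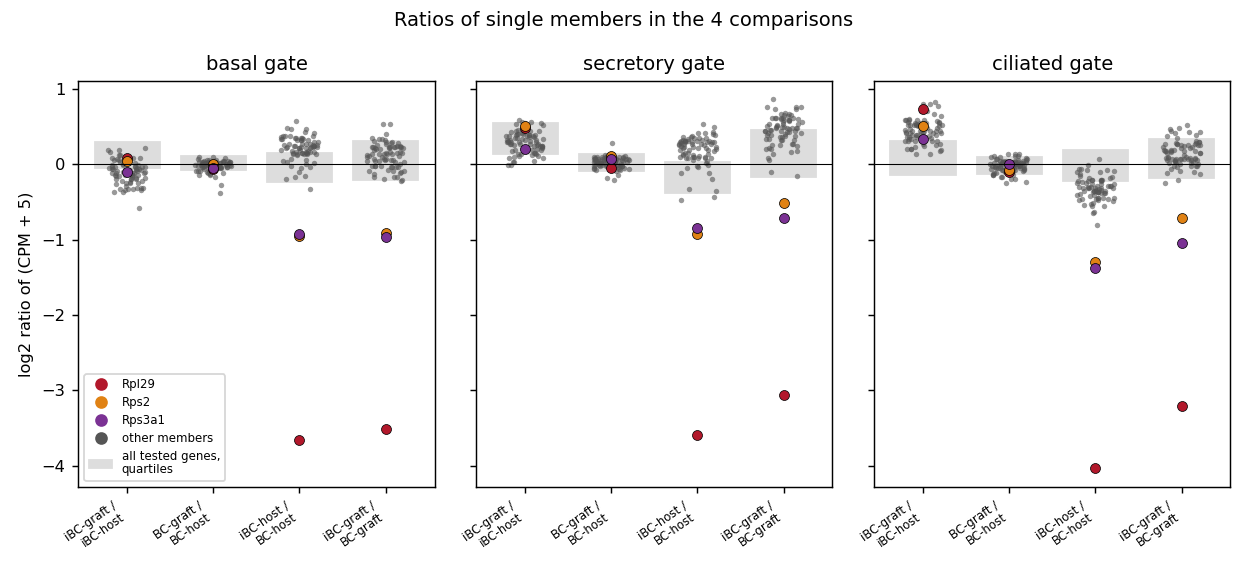
Log2 ratio of CPM for the 81 measured members in each of the 4 comparisons and 3 classes, 1 point per member, with grey bands for the quartiles of all tested genes. The comparison of BC-graft with BC-host lies nearest to 0, with medians of 0.00, 0.04 and -0.01, and Rpl29, Rps2 and Rps3a1 lie below the other members in the comparisons between recipients.

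Of the 2 host libraries, iBC-host had the higher module share in basal (1.15-fold) and secretory cells (1.14-fold) and the lower in ciliated cells (a ratio of 0.80). The ciliated difference was smaller in size with classes from clusters and with doublets kept, as given below. The median ciliated cell held 4.16% in iBC-host and 4.58% in BC-host, and the 95th percentiles were 5.82% and 8.38%. The part of the cells with high shares in this difference was not tested. The ratios between the host libraries share libraries with the comparisons within each recipient. In basal and secretory cells 3 members were lower and none higher, Rpl29, Rps2 and Rps3a1, against 7.77% and 15.1% of tested genes lower and 4.27% and 3.79% higher. In ciliated cells 6 were lower, with Rplp0, Rplp2 and Rpl30 besides these 3, and none higher, where 7.71% of tested genes were lower and 7.12% higher. With classes from clusters 3 were lower in ciliated cells, and with TMM scaling 1 member was higher in basal and 5 in secretory cells. The median log2 ratio of the members was 0.22, 0.22 and -0.32, beside -0.04, -0.18 and -0.02 for all tested genes. Rps27 was the highest member in basal (log2 0.57) and secretory cells (0.54), followed by Rps21 (0.48 and 0.49), and then by Rps15 (0.47) in basal and Rps4x (0.42) in secretory cells. In ciliated cells Rplp1 (0.07), Rps27 (-0.01) and Rpl38 (-0.06) were highest.

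The module ratio of iBC-graft over BC-graft was 1.06, 1.36 and 1.09 in basal, secretory and ciliated cells. In basal and ciliated cells the same 3 members were lower and none higher, against 11.3% and 11.2% of tested genes lower and 12.8% and 13.1% higher. In basal cells Rpl5 (log2 0.53), Rps15 (0.53) and Rps12 (0.39) were highest, and in ciliated cells Rpl36al (0.52), Rps4x (0.48) and Rps12 (0.46). In secretory cells 21 of 81 members were higher, against 21.5% of tested genes, and Rpl29 and Rps3a1 were lower, where 12.5% of tested genes were. With TMM scaling 6 were higher in secretory cells, and with classes from clusters 4 in ciliated cells. The highest were Rps12 (1951 against 1075 CPM, log2 0.86), Rps4x (0.76) and Rps27 (0.76).

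The stalk proteins did not move as a block. In basal cells Rplp0 had 3508, 4055, 4407 and 4694 CPM, with iBC-host lowest, whereas Rplp1 had 9476, 7435, 7322 and 7200.0 CPM, with iBC-host highest. Rplp2 had 2814, 2692, 2403 and 2304 CPM. In ciliated cells Rplp0 had 437, 762, 771 and 812 CPM and Rplp1 2247, 2649, 2142 and 2021 CPM. Rpsa, a small-subunit protein also known as a laminin receptor, had 3608, 3759, 3051 and 3181 CPM in basal, 1036, 1396, 859.9 and 912 CPM in secretory and 476, 683, 704 and 627 CPM in ciliated cells.

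Basal cells were not uniform, and clusters made without ribosomal protein genes held different shares of them by library. The 329 basal cells of iBC-host in cluster 5 had a median module share of 28.7% and the 240 in cluster 10, led by Krt14 and Mgp, 25.8%. Of the iBC-graft basal cells, 374 in cluster 6 had 27.6% and 190 in cluster 12, led by Krt13, 23.3%. In cluster 0, which held most basal cells of BC-host and BC-graft, the medians were 24.6% and 24.8%. In cluster 8, led by Krt13, the 73 basal cells of BC-host had 22.6% and the 231 of BC-graft 22.9%. In cluster 1 the 23 of BC-host had 21.0% and the 140 of BC-graft 21.5%. The module difference of iBC-graft from iBC-host was a log2 ratio of -0.12 over all basal cells. In clusters 0, 5 and 6 alone it was -0.08, whereas with cluster 10 left out it was larger in size, as given below. Both settings were added after seeing the data.

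The rest of the translation machinery followed the class difference in part. From ciliated to basal cells, 8, 7, 7 and 7 of 10 measured elongation factor genes were higher and none lower, as were 20, 17, 20 and 21 of 24 or 25 other genes known for a 5' TOP. Eef1d is in both of these lists, so their counts are not separate. Of the ribosome biogenesis genes, which process and assemble ribosomal RNA, 52 of 70, 48 of 67, 33 of 61 and 34 of 61 were higher and 2 or 3 lower. Initiation factors were higher less uniformly, with 16 of 38, 16 of 39, 13 of 38 and 14 of 39, and 3, 4, 4 and 4 were lower. Mitochondrial ribosomal proteins, which build the separate ribosome of mitochondria, went both ways, with 9, 10, 9 and 14 of 73 or 74 higher and 11, 12, 9 and 10 lower. Background shares are those given for the members above. Fau, a ubiquitin-like fusion that carries a small-subunit protein and lies outside the name rule, had 3338, 2995, 2759.8 and 2662 CPM in basal cells.

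Between basal cells of iBC-graft and iBC-host, no elongation factor or other 5' TOP gene was called, and the counts below are read beside the 10.7% of all tested genes that were higher and the 6.02% that were lower. The highest and lowest elongation genes were Eif5a (log2 0.30) and Gspt1 (0.21), and Eef1d (-0.20) and Eef1g (-0.12). Of the other TOP genes Hnrnpa1 (0.48) and Eif4b (0.19) were highest and Eif3k (-0.30) and Eef1d lowest. Initiation factors had Eif2b1 higher (1.62-fold) and Eif2b3 lower (1.64-fold), beside Eif3b (0.50) and Eif3j1 (-0.37). Of 70 biogenesis genes Utp11 was higher (1.59-fold) and Surf6 lower (1.62-fold), beside Polr1d (0.38) and Utp4 (-0.44). Of 25 regulators of mTOR and TOP mRNAs Mycl was higher (50.8 against 21.7 CPM) and Ddit4, an inhibitor of mTOR, lower (44.8 against 82.7 CPM), beside Tsc2 (0.44) and Lamtor5 (-0.32). Of 14 genes of ribosomal protein assembly and stress, Gadd45a (28.3 against 12.5 CPM) and Mdm2 (58.5 against 33.8 CPM), both p53 targets, were higher and Trp53 itself lower (43.7 against 79.5 CPM), beside Usp10 (-0.14). Of 73 mitochondrial ribosomal proteins Mrpl27 (1.67-fold) and Mrpl39 (1.57-fold) were higher and Mrps6 lower (1.61-fold), beside Mrpl41 (-0.33).

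In secretory cells, 25 of 45 biogenesis genes were higher in iBC-graft than in iBC-host and none lower, as were 21 of 59 mitochondrial ribosomal proteins and 4 of 33 initiation factors, beside the 28.2% of all tested genes. The biogenesis genes had a median log2 ratio of 0.50, the cytosolic ribosomal proteins of 0.30 and all tested genes of 0.35. Against BC-graft, 18 of 45 biogenesis genes were higher in secretory and 14 of 67 in basal cells of iBC-graft, where 21.5% and 12.8% of all tested genes were higher.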

How the data were processed

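The submitters' processing notes name Cell Ranger, STARsolo and Seurat and the build GRCm38, without versions and without saying which of them made the counts. The deposited UMI counts per gene and cell were used as they were. Members, gene lists and comparisons were chosen with earlier results of these data known. Barcodes with under 500 genes or over 20% mitochondrial UMIs were removed, as were doublets called by Scrublet in scanpy 1.11.5 (9 to 44 per library). Cells with over 50% of the 12 ciliated markers detected were ciliated. Basal cells had at least 30 basal marker UMIs per 10000 and at most 4 times as many secretory ones, and secretory cells at least 500 secretory marker UMIs and at least 64 times the basal ones. The gate limits were chosen while looking at these cells, and other cells stayed ungated.

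For each class of a library the counts were added up and expressed as CPM. Log2 ratios carry a pseudocount of 5 CPM and understate changes of low genes; folds carry none. Intervals are exact at 95% (Poisson, or Clopper-Pearson for shares) and cover counting error only. With 1 library per group there is no test. Named were Rpl29, the paralogs, the stalk proteins, Rpsa, the 3 highest and 3 lowest members per comparison and class, the 3 leading members of each class, and the 2 highest and lowest genes of each other list in basal cells after iBC transplantation. Calculations were tested on simulated data. Clusters (leidenalg 0.10.2, 20 clusters) left out ribosomal protein genes. Sequence copies were found with BLAST 2.17.0 against the GENCODE vM21 transcripts (GRCm38). TMM factors came from edgeR 4.0.16. Strand use in counting is not given in the sources used here. A few members that the naming rule picks are not reported here.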

Additional observations from a re-analysis of the deposited data

Results flagged for a closer look

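In ciliated cells the module's log2 ratio of graft over host was 0.43 for iBC-graft against iBC-host and -0.02 for BC-graft against BC-host, so the first was higher in the graft and the second nearly level. The second value changed its sign with doublets kept (0.0094), as a mean over cells (0.015) and with classes from clusters (0.024). With 1 library per group the difference between the recipients was not tested.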

How the results depend on the processing

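No paired analysis was possible because each group held 1 library. The module values here are log2 ratios in the order basal, secretory, ciliated, for iBC-graft over iBC-host (a), BC-graft over BC-host (b), iBC-host over BC-host (c) and iBC-graft over BC-graft (d). As reported they were -0.12, 0.28 and 0.43 (a), -0.0094, 0.025 and -0.019 (b), 0.20, 0.19 and -0.32 (c) and 0.090, 0.44 and 0.13 (d). With TMM scaling they were -0.23, -0.075 and 0.33 (a), -0.013, 0.0048 and -0.011 (b), 0.27, 0.38 and -0.28 (c) and 0.056, 0.30 and 0.055 (d). In basal cells of clusters 0, 5 and 6 they were -0.079 (a), 0.021 (b), 0.22 (c) and 0.12 (d). In basal cells outside cluster 10 they were -0.18 (a), -0.0069 (b), 0.26 (c) and 0.089 (d). With at most 10% mitochondrial UMIs they were -0.13, 0.27 and 0.36 (a), -0.011, -0.0047 and -0.032 (b), 0.20, 0.14 and -0.32 (c) and 0.087, 0.41 and 0.073 (d). With classes from clusters they were -0.089, 0.42 and 0.41 (a), 0.023, 0.059 and 0.024 (b), 0.14, 0.10 and -0.10 (c) and 0.025, 0.46 and 0.29 (d). Without marker genes in the denominator they were -0.14, -0.023 and 0.41 (a), -0.013, -0.015 and -0.0027 (b), 0.20, 0.38 and -0.32 (c) and 0.066, 0.37 and 0.10 (d). Without mitochondrially encoded genes in it they were -0.14, 0.28 and 0.39 (a), -0.0094, 0.031 and -0.024 (b), 0.19, 0.15 and -0.32 (c) and 0.059, 0.40 and 0.10 (d). With doublets kept they were -0.12, 0.27 and 0.30 (a), -0.010, 0.022 and 0.0094 (b), 0.20, 0.20 and -0.19 (c) and 0.090, 0.45 and 0.10 (d). As a mean over cells they were -0.10, 0.27 and 0.42 (a), -0.012, 0.039 and 0.015 (b), 0.20, 0.21 and -0.24 (c) and 0.11, 0.44 and 0.16 (d). With the stricter gate they were -0.16, 0.28 and 0.43 (a), -0.010, -0.0091 and -0.019 (b), 0.19, 0.22 and -0.32 (c) and 0.035, 0.51 and 0.13 (d). TMM scaling shifted a ratio by at most 0.35. The secretory value of (a) turned its sign under TMM scaling and without marker genes, and the values of (b) lay between -0.032 and 0.059. The settings on cluster 10, on clusters 0, 5 and 6, on marker genes and on near-identical copies were added after seeing the data.

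The 14 members higher in ciliated cells in (a) became 7 with TMM scaling and 0 per UMI of the module or at 2-fold. The 1 in secretory cells became 13 with classes from clusters and 0 under these other 3 settings. The 21 higher in secretory cells in (d) became 6 with TMM scaling and 0 per UMI of the module or at 2-fold, and the 2 lower became 4 and 1 under the last pair. In (c), the 3 lower basal and the 3 lower secretory members became 1 at 2-fold, the secretory ones 5 per UMI of the module, and the 6 lower ciliated members 3 at 2-fold, per UMI of the module and with classes from clusters. The 3 lower basal members in (d) became 1 at 2-fold. From 0, TMM scaling gave 1 lower basal member in (a) and 1 higher basal and 5 higher secretory members in (c), and classes from clusters gave 4 higher ciliated members in (d). Rps2 in (d), -0.71 in ciliated cells, was -0.39 and no longer past the limit with classes from clusters. The cause of these shifts was not tested. With 1 library per group, no error between animals can be given.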

Other observations

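Gm10036, a near-identical copy of Rpl11 counted as a feature of its own, was singled out after its values were seen. Over all kept cells it had 48.8 CPM in iBC-host and 49.3 in iBC-graft, but 2.02 in BC-host and 2.44 in BC-graft. Rpl11 itself had 1622, 1794, 1798 and 2057 CPM in that order.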
